A study of Mus musculus with 60 samples.

Results

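The levels of 10 genes of serine synthesis and of the integrated stress response were followed through the livers of mice given 2,3,7,8-tetrachlorodibenzo-p-dioxin (TCDD): Psat1, Phgdh, Psph, Shmt2, Asns, Atf4, Atf5, Ddit3, Trib3 and Chac1. They were chosen by name, as the features whose Entrez identifier maps to these mouse symbols, and make up 10 of the 21115 features on the arrays, 1 feature each. The 60 arrays each hold the liver RNA of 1 C57BL/6J mouse of 12 to 15 weeks, labelled male and caged singly, from 1 of 3 transgenic lines named rWT, DEL and INS for their variant of the aryl hydrocarbon receptor (AHR), the transcription factor that binds dioxins. Mice received 1 oral gavage of TCDD at 125, 250, 500 or 1000 µg/kg in corn oil, or corn oil alone, and livers were taken 96 hours later. In the order corn oil, 125, 250, 500 and 1000 µg/kg, rWT had 5, 3, 3, 4 and 2 mice, DEL had 5, 4, 4, 4 and 4, and INS had 5, 4, 4, 4 and 5. As background, the rat AHR occurs as a wild type and, in a dioxin-resistant rat strain, as splice variants with a deletion or an insertion in the transactivation domain. No source used here gives the promoter of the transgene or the state of the mouse's own receptor.

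Serine is made from the glycolytic intermediate 3-phosphoglycerate in a short chain of steps. Phgdh oxidises it to phosphohydroxypyruvate, Psat1 transfers an amino group from glutamate, and Psph removes the phosphate, after which the mitochondrial enzyme Shmt2 splits serine into glycine and a folate-bound one-carbon unit. Asns makes asparagine from aspartate and glutamine. In the integrated stress response, kinases that sense amino acid shortage, endoplasmic reticulum stress, haem shortage or viral RNA phosphorylate eIF2alpha, which lowers general translation and raises translation of the transcription factor ATF4. Much of the control of Atf4 therefore lies in translation, which these arrays do not measure. ATF4 binds composite sites with C/EBP proteins and is known to drive the serine synthesis genes, Asns, Ddit3 (the factor CHOP), Atf5, the pseudokinase gene Trib3 and Chac1, which encodes a glutathione-degrading enzyme.

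The promoters of Psat1, Asns and Chac1 and a site in Trib3 are shown because they carry, or in Psat1 lack, the ATF4 and C/EBP composite letters TGATGNAA, and because Psat1 and Asns had the largest averaged TCDD effects of the 10 genes in rWT and DEL. Sequences are from RefSeq for GRCm38.p6, 5′ to 3′ on the strand of the gene, and end at the base before the transcript start. Capitals mark matches on either strand to TGATGNAA and to the AHR core GCGTG, which reads CACGC on the opposite strand. The stretches are Psat1, chr19:15925060-15925309, minus strand, Asns, chr6:7693210-7693459, minus strand, and Chac1, chr2:119350992-119351241, plus strand. In Trib3 the site lies after the transcript start, at chr2:152344028-152344057, minus strand.
Psat1: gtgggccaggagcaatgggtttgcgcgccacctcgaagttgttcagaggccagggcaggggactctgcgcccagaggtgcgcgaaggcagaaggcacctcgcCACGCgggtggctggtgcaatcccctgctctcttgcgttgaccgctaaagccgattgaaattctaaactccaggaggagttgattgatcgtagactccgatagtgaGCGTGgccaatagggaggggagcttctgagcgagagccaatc
Asns: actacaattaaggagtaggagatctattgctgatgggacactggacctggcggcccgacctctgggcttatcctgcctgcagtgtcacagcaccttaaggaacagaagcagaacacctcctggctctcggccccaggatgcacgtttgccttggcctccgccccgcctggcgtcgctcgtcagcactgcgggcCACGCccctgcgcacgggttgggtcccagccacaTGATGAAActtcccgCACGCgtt
Chac1: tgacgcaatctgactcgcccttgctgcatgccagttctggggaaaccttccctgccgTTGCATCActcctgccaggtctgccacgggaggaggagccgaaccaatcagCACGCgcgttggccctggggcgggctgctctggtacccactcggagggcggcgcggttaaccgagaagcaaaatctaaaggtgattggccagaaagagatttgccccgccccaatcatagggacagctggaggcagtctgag
Trib3: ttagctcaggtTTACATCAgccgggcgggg

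All 10 genes had a promoter in the RefSeq table, 12 promoters in all since Psat1 and Atf5 have 2 each, read as 300 bases from 250 before to 50 after the transcript start. TGATGNAA was found in 3 of the 10 genes: in Asns 23 bases before the start, in Chac1 193 bases before it and in Trib3 at base 15 after it. Of all 32851 promoters of the same length, 3.97% hold these letters. GCGTG was found in 9 of the 10 genes, Atf5 being without it, and in 10 of the 12 promoters, against 32.4% of all promoters. These are matches of letters in a window, with no measure of binding.

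Before the results, 4 rWT arrays have to be named. Corn oil replicates 3, 4 and 5 and TCDD 500 replicate 4 of rWT read Xist between 10.66 and 11.41 on the log2 scale, where the other 56 arrays read 2.42 to 3.44, and read the Y-linked Eif2s3y at 2.73 to 3.37 against 8.15 to 9.72, although all mice are labelled male. Several rWT results are therefore also given without these 4 arrays. The other rWT effects, the cell type markers and the features most like each member rest on all arrays. Most of the 4 are corn oil livers, so an rWT effect with all arrays may carry this difference. Where no second value is given, its part is not shown. Array means also followed the line: rWT arrays averaged 6.01 to 6.08, DEL arrays 6.23 to 6.30 and INS arrays 5.58 to 5.74, so differences between lines are taken between TCDD effects, and corn oil levels of different lines are set beside the offset of the median feature. All 6 genes of a treatment check (Cyp1a1, Cyp1a2, Cyp1b1, Ahrr, Tiparp and Nqo1) rose in all 3 lines, and in each line every TCDD array lay above every corn oil array for each of them, TCDD 500 replicate 4 of rWT included. Markers of other cell types moved as well in rWT and DEL. In rWT, where 20.3% of all features were called higher and 20.4% lower, 9 of 12 macrophage, 8 of 10 neutrophil, 6 of 10 stellate cell and 7 of 7 proliferation markers rose and 6 of 11 hepatocyte and 5 of 5 erythroid markers fell. There 1 macrophage and 1 stellate cell marker fell, and of 11 lymphocyte markers 3 rose and 4 fell. In DEL, where 16.7% of features were called higher and 17.6% lower, 12 macrophage, 8 neutrophil, 8 stellate cell and 7 proliferation markers rose, and 6 hepatocyte markers, 1 erythroid and 1 neutrophil marker fell. In INS none of these markers passed the test in either direction. The summed level of the neutrophil markers on the log2 scale lay between 7.55 and 8.33 in corn oil and between 8.56 and 12.95 under TCDD in rWT. The same ranges were 8.12 to 8.55 and 9.36 to 12.01 in DEL, and 7.26 to 7.73 and 7.17 to 8.20 in INS. TCDD 500 replicate 4 of rWT had the lowest neutrophil sum of the treated rWT livers, 8.56, and the highest hepatocyte sum, 16.60. The part of these cells in the members' levels was not tested, and in whole liver a change in the number of cells of a type and a change of RNA per cell cannot be told apart.

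Psat1 rose in all 3 lines and was the member with the largest averaged TCDD effect in each. In rWT it read 5.17, 5.23, 5.02, 5.50 and 5.80 in the 5 corn oil livers, 10.17, 10.37 and 10.19 at 125 µg/kg, 11.03, 10.53 and 10.81 at 250 µg/kg, 11.28, 9.86, 10.93 and 5.53 at 500 µg/kg, and 10.81 and 11.17 at 1000 µg/kg (log2 values, in replicate order). In DEL it read 6.29, 5.67, 5.56, 5.93 and 5.76 in corn oil, 9.69, 9.73, 10.90 and 9.53 at 125 µg/kg, 9.39, 9.78, 10.78 and 9.86 at 250 µg/kg, 11.09, 10.67, 9.08 and 11.47 at 500 µg/kg, and 10.56, 10.32, 11.27 and 9.91 at 1000 µg/kg. In INS it read 4.62, 4.48, 5.69, 4.71 and 4.85 in corn oil, 6.66, 6.86, 7.65 and 7.46 at 125 µg/kg, 6.94, 6.80, 8.02 and 6.17 at 250 µg/kg, 7.41, 5.86, 7.46 and 7.70 at 500 µg/kg, and 7.65, 8.01, 7.11, 7.60 and 6.96 at 1000 µg/kg. Treated and corn oil livers did not overlap in DEL or INS, and in rWT 1 of 12 treated livers, TCDD 500 replicate 4, lay among the corn oil livers. The averaged effect, the mean of the 4 TCDD group means minus the corn oil mean on the log2 scale, was 5.01 ± 0.46 (SE) in rWT, a 32.3-fold rise, with an adjusted p of 1.25e-12 in limma. It was 4.41 ± 0.43 in DEL (adjusted p 2.03e-11) and 2.31 ± 0.43 in INS, a 4.95-fold rise (adjusted p 0.00128). Without the 4 rWT arrays the rWT effect was 5.48 ± 0.44.

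**Figure D1:**
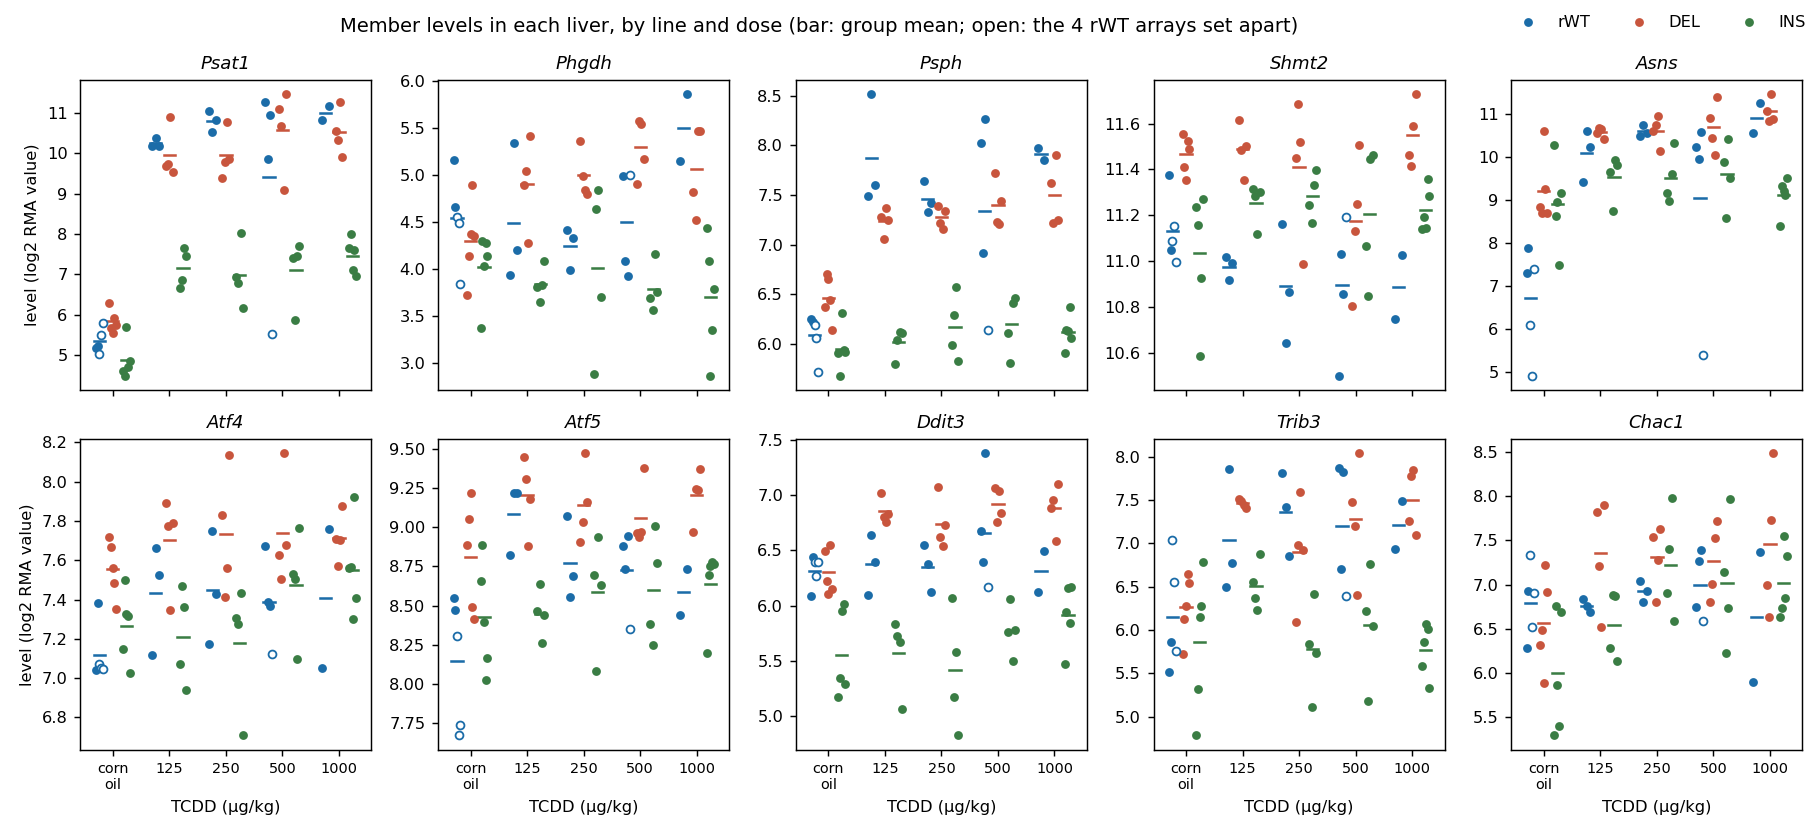
Level of each of the 10 genes (log2 RMA value, vertical axis, its own scale per gene) in each of the 60 livers, by TCDD dose (horizontal axis) and line (colour), with a bar at each group mean and open points for the 4 rWT arrays set apart. Psat1 lies above the corn oil livers of its line at every dose in DEL and INS. In INS the lowest treated liver, at 5.86, is close to the highest corn oil liver, at 5.69. An open rWT point at 500 µg/kg, at 5.53, lies among the corn oil livers.

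Of the other steps from 3-phosphoglycerate to serine, Psph rose in rWT and DEL and Phgdh in DEL. In rWT, Psph read 5.72 to 6.25 in corn oil and 6.92 to 8.52 in 11 of the 12 treated livers, with TCDD 500 replicate 4 at 6.14, and its averaged effect was 1.56 ± 0.19 (2.94-fold, limma adjusted p 1.45e-09). In DEL, Psph read 6.15 to 6.71 in corn oil and 7.06 to 7.90 in all 16 treated livers, with no overlap, an effect of 0.89 ± 0.18 (adjusted p 6.36e-05). In INS, treated livers at 5.80 to 6.58 overlapped corn oil livers at 5.68 to 6.31, and the effect of 0.18 ± 0.18 did not pass the test (adjusted p 0.99). Phgdh, the first enzyme of the pathway, read 3.72 to 4.89 in corn oil and 4.27 to 5.57 under TCDD in DEL, with 11 of 16 treated livers above all corn oil livers and an effect of 0.77 ± 0.24 (adjusted p 0.0103). That call was lost without DEL corn oil replicate 1 (0.63, adjusted p 0.0646) and after centring each array on its median (0.52, adjusted p 0.0686). Phgdh did not pass the test in rWT (0.14 ± 0.26) or INS (-0.18 ± 0.24), where the 95% confidence intervals ran from -0.37 to 0.66 and from -0.67 to 0.30. Its levels were low: in INS it read 3.37 to 4.30 in corn oil and 2.86 to 4.835 under TCDD. In the 4 rWT arrays with high Xist, the Y-linked Kdm5d and Uty read 3.745 to 4.101 and 3.03 to 3.81. Near such levels an effect may be understated, so a small change in Phgdh could be missed.

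Shmt2, which carries serine into mitochondrial one-carbon metabolism, passed the test in no line. Its group means lay between 10.89 and 11.13 in rWT, between 11.17 and 11.55 in DEL and between 11.03 and 11.28 in INS, and its averaged effects were -0.22 ± 0.11 in rWT (adjusted p 0.104), -0.06 ± 0.11 in DEL and 0.21 ± 0.10 in INS. In rWT, 7 of 12 treated livers lay below all corn oil livers. After median centring, which moved the median averaged effect of all features from -0.07 to -0.29 in rWT and from -0.06 to -0.31 in DEL, Shmt2 was lower under TCDD in both (-0.44 and -0.31, adjusted p 0.00255 and 0.0201). These centred effects stand beside a median feature at -0.29 in rWT and -0.31 in DEL, so in DEL Shmt2 moved about as far as the median feature.

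Asns, the asparagine synthetase gene with the composite site at 23 bases before its start, rose in rWT and DEL from unequal starting levels. In rWT it read 7.29, 7.88, 6.09, 4.90 and 7.40 in corn oil, 9.43, 10.60 and 10.23 at 125 µg/kg, 10.50, 10.75 and 10.56 at 250 µg/kg, 10.24, 9.96, 10.60 and 5.39 at 500 µg/kg, and 10.55 and 11.27 at 1000 µg/kg. In DEL it read 8.83, 8.69, 10.62, 9.27 and 8.69 in corn oil and 10.04 to 11.48 under TCDD, and in INS 10.28, 8.64, 8.96, 7.50 and 9.17 in corn oil and 8.39 to 10.42 under TCDD. Treated livers lay above all corn oil livers in 11 of 12 cases in rWT, 10 of 16 in DEL, where corn oil replicate 3 reached into the treated range, and 2 of 17 in INS. The averaged effect was 3.45 ± 0.48 in rWT (10.9-fold, limma adjusted p 4.50e-08; 2.88 ± 0.44 without the 4 arrays), 1.52 ± 0.45 in DEL (2.87-fold, adjusted p 0.00667) and 0.54 ± 0.45 in INS (adjusted p 0.957).

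The transcripts of the transcription factors moved less. Atf4 passed the test in no line: its averaged effects were 0.30 ± 0.13 in rWT (adjusted p 0.0626), 0.17 ± 0.13 in DEL and 0.09 ± 0.13 in INS, and the upper ends of the 95% confidence intervals were 0.56, 0.42 and 0.34. In rWT the call hung on single livers, since leaving out any of 5 arrays (corn oil replicate 2, TCDD 125 replicate 1, TCDD 250 replicate 1, TCDD 500 replicate 4 or TCDD 1000 replicate 1) brought the adjusted p to 0.0179 to 0.0433. Without the 4 arrays set apart it was 0.362. Atf5, an ATF4 target that is itself a transcription factor, rose by 0.65 ± 0.15 in rWT (adjusted p 0.000589), but by 0.31 ± 0.20 without the 4 arrays, which did not pass (adjusted p 0.228). In DEL the Atf5 effect was 0.34 ± 0.15 with an adjusted p of 0.0667, which became 0.0431 without those arrays. Ddit3, which encodes CHOP, rose in DEL by 0.55 ± 0.15 (adjusted p 0.00379), where 15 of 16 treated livers at 6.54 to 7.10 lay above all corn oil livers at 6.11 to 6.55. The DEL call for Ddit3 was lost after quantile normalization (0.33, adjusted p 0.0848) and after median centring (0.29, adjusted p 0.0796). In rWT and INS, Ddit3 effects were 0.11 ± 0.16 and 0.12 ± 0.15 and did not pass.

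Trib3, a target of ATF4 and CHOP whose product binds ATF4, rose in rWT by 1.06 ± 0.29 (2.08-fold, adjusted p 0.00253) and in DEL by 1.02 ± 0.28 (2.03-fold, adjusted p 0.00264). In rWT it read 5.52, 5.86, 7.04, 6.55 and 5.76 in corn oil and 6.39 to 7.87 under TCDD, so that 6 of 12 treated livers lay above all corn oil livers, and the 2 high corn oil readings were replicates 3 and 4. Without the 4 arrays the rWT effect was 1.58 ± 0.39. In DEL, 14 of 16 treated livers lay above the corn oil range of 5.72 to 6.64. In INS, Trib3 spanned 4.78 to 6.78 in corn oil alone and its effect was 0.17 ± 0.27. Chac1 rose in DEL by 0.79 ± 0.27 (adjusted p 0.0193), with 9 of 16 treated livers above all corn oil livers. That call was lost without DEL corn oil replicate 1 or 3 (adjusted p 0.0588 and 0.105), after quantile normalization (0.0812) and after median centring (0.0872). In INS the Chac1 effect was of like size, 0.95 ± 0.27, with 10 of 17 treated livers above all corn oil livers, and did not pass over all features (adjusted p 0.101). In rWT it was 0.04 ± 0.28, with a 95% confidence interval from -0.53 to 0.60.

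**Figure D2:**
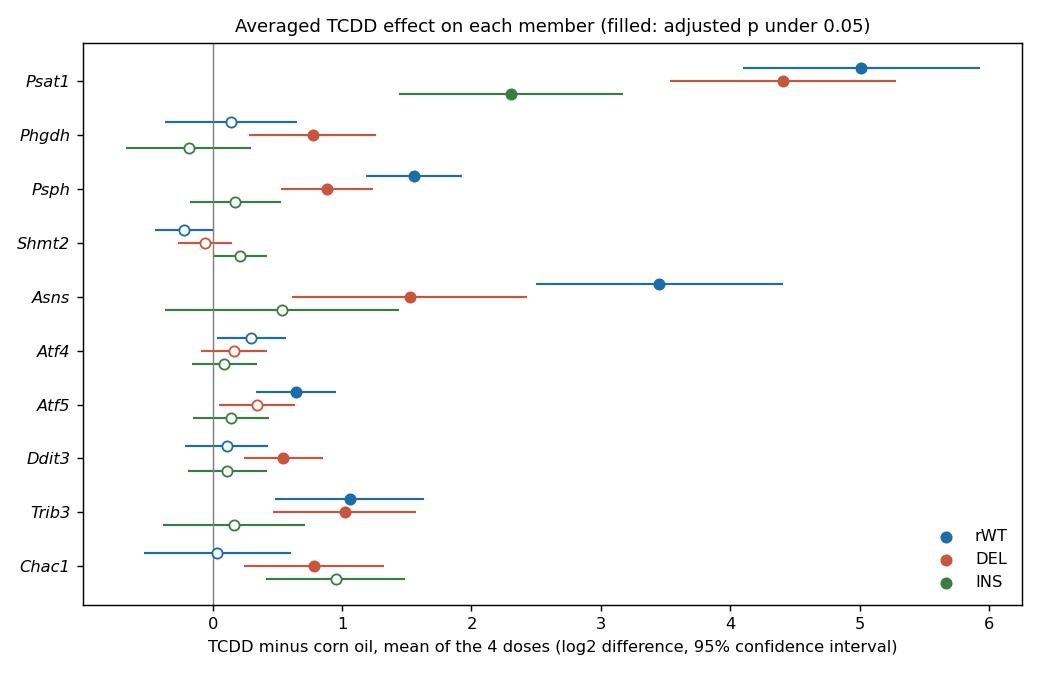
Averaged TCDD effect (log2 difference, horizontal axis) on each of the 10 genes in the 3 lines, with 95% confidence intervals and filled points where the adjusted p was under 0.05. Psat1 stands at 5.01, 4.41 and 2.31 in rWT, DEL and INS, while every Atf4 point is open.

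Counted by line, 5 of the 10 genes rose in rWT (Psat1, Psph, Asns, Trib3 and Atf5), where 20.3% of all features were called higher, and 4 without the 4 arrays, where 16.9% were. In DEL 7 rose (Psat1, Psph, Asns, Trib3, Chac1, Phgdh and Ddit3) against 16.7% of features, and in INS 1 rose, Psat1, against 0.431%. None was called lower in any line. Median centring left 4 genes higher in DEL, with Phgdh, Ddit3 and Chac1 lost, and called Shmt2 lower in rWT and DEL. Median effects of the 10 genes were 0.47, 0.78 and 0.17 in rWT, DEL and INS, against -0.07, -0.06 and -0.01 over all features. Treated and corn oil livers were fully apart, all treated livers higher, for 0 genes in rWT, 2 in DEL (Psat1 and Psph) and 1 in INS (Psat1). This holds for 3.97%, 5.88% and 0.18% of all features. Without the 4 arrays it held for 4 genes in rWT (Psat1, Psph, Asns and Trib3) and for 15.5% of features, with 2 corn oil livers left. Median centring changed the split of calls over all features, from 49.9% to 20.3% higher in rWT and from 48.6% to 15.8% in DEL.

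Called genes were present at 125 µg/kg in rWT and DEL, and no gene had a called slope on dose. Over the 4 doses of each line, which share the corn oil livers, 17 of 40 comparisons were called in rWT, 16 of 40 in DEL and 1 of 40 in INS, all of them higher. In rWT 4, 5, 5 and 3 genes were called at 125, 250, 500 and 1000 µg/kg, against 13.8%, 16.6%, 13.1% and 15.7% of all features called higher. In DEL the numbers were 4, 2, 5 and 5 genes against 9.42%, 11.5%, 14.6% and 14.3%, and in INS 0, 0, 0 and 1 against 0.0805%, 0.128%, 0.208% and 0.564%. Psat1, Psph and Asns were called at all 4 doses in rWT, and Psat1 and Psph at all 4 in DEL. The Psat1 effect was 4.90, 5.45, 4.06 and 5.65 in rWT in order of dose, where the value at 500 µg/kg was 5.49 without the 4 arrays, and 4.12, 4.11, 4.74 and 4.67 in DEL. In INS it was 2.29, 2.11, 2.24 and 2.59, called at 1000 µg/kg only (adjusted p 0.00479, against 0.135, 0.169 and 0.0901 at the lower doses), and called at all 4 doses without the 4 rWT arrays (adjusted p 4.98e-06 to 0.00161). Slopes of the TCDD group means per doubling of the dose were 0.09 ± 0.24, 0.23 ± 0.19 and 0.11 ± 0.18 for Psat1 in rWT, DEL and INS. None of the 10 genes passed in any line, where 0.0284%, 0% and 0.0426% of all features did, and at an unadjusted p under 0.05 the whole table held 746, 2260 and 1352 features.

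Between lines, the averaged effects of Psat1, Psph and Asns were smaller in INS than in rWT. The averaged effect of Psat1 was lower in INS than in rWT by 2.71 ± 0.63 and lower than in DEL by 2.10 ± 0.61 on the log2 scale (limma adjusted p 0.001 and 0.0136). For Psph the differences were -1.38 ± 0.26 and -0.71 ± 0.25 (adjusted p 5.17e-05 and 0.0456), the second being lost after quantile normalization (-0.57, adjusted p 0.121), after median centring (-0.48, adjusted p 0.114) and on leaving out any of 22 single arrays. For Asns, INS minus rWT was -2.91 ± 0.65 (adjusted p 0.000693; -2.35 without the 4 arrays), and INS minus DEL was -0.98 ± 0.64 (adjusted p 0.362). Shmt2, which passed in neither line alone, differed by 0.43 ± 0.15 between INS and rWT (adjusted p 0.0354), a call lost after quantile normalization (adjusted p 0.09), with the replicate number as a block (0.41, adjusted p 0.0541) and on leaving out any of 6 single arrays. Trib3 differed between INS and rWT by -0.89 ± 0.40 (adjusted p 0.107), which passed without the 4 arrays (-1.42 ± 0.47, adjusted p 0.0232). Chac1 differed the other way, by 0.91 ± 0.39 (adjusted p 0.0896), which passed after median centring (1.12, adjusted p 0.0313) and on leaving out any of 3 single arrays. Phgdh was lower in INS than in DEL by 0.96 ± 0.34 (adjusted p 0.0515), which passed after quantile normalization (0.0491), without the 4 arrays (0.043) and without the dimmest features (0.0403). In all, 4 of the 10 genes were called for INS minus rWT and 2 for INS minus DEL, where 20.9% and 14.1% of all features were.

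No member passed the test of the difference between DEL and rWT with all arrays, where 1.11% of all features did. The 95% confidence intervals of DEL minus rWT were wide: -1.87 to 0.66 for Psat1, -1.18 to -0.15 for Psph, -3.25 to -0.61 for Asns, -0.01 to 0.88 for Ddit3 and -0.04 to 1.53 for Chac1. Those of Psph and Asns, which are not adjusted over all features, held negative values only. The outcome depended on which rWT arrays were left out. Without TCDD 500 replicate 4 of rWT alone, the differences of Asns (-2.23, limma adjusted p 0.00387) and Psph (-0.77, adjusted p 0.0322) passed. Without all 4 rWT arrays they did not (-1.36 and -0.62, adjusted p 0.226 and 0.29).

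In corn oil livers, Asns stood out from the offset between lines. Its mean was 6.71 ± 1.21 (SD, n = 5) in rWT, 9.22 ± 0.82 (n = 5) in DEL and 8.91 ± 1.001 (n = 5) in INS. DEL exceeded rWT by 2.51 ± 0.56 and INS exceeded rWT by 2.20 ± 0.56 (limma adjusted p 0.000451 and 0.00171), where the median feature differed by 0.24 and -0.29. The rWT corn oil livers with the lowest readings, 6.09 and 4.90, were among the 4 arrays set apart; without those the differences were 1.63 ± 0.47 and 1.32 ± 0.47 (adjusted p 0.0138 and 0.0321). With all arrays, 4 of the 10 genes were called for DEL minus rWT (Asns, Shmt2, Atf4 and Atf5) against 36% of features, 3 for INS minus rWT (Asns, Ddit3 and Chac1) against 41.8%, and 4 for INS minus DEL (Psph, Shmt2, Atf5 and Ddit3) against 75.5%. Without the 4 arrays the first 2 counts were 1 and 2, against 16.6% and 28.5%. After quantile normalization or median centring no gene was called for INS minus DEL, and Asns alone was called for DEL minus rWT. For INS minus rWT the same scalings kept Asns, lost Ddit3 (-0.31 and -0.30) and Chac1 (-0.36 and -0.34), and called Atf4 (0.51 and 0.60) and Atf5 (0.61 and 0.74) higher in INS.

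Genes around the members were followed in lists of related function. Of 20 serine, glycine and folate one-carbon enzymes, 4 rose and 13 fell in rWT, 3 rose and 10 fell in DEL, and 1 rose in INS. Of all features, 20.3%, 16.7% and 0.431% were called higher and 20.4%, 17.6% and 0.137% lower in rWT, DEL and INS. The rises of these enzymes in rWT and DEL are thus near the share over all features. Those that fell furthest in rWT use up serine or glycine derivatives: the serine dehydratase Sds fell by 3.08 ± 0.38, the cytosolic serine hydroxymethyltransferase Shmt1 by 2.62 ± 0.22 and the sarcosine dehydrogenase Sardh by 2.55 ± 0.25 on the log2 scale. In DEL, Sds fell by 2.24 ± 0.36, Shmt1 by 1.96 ± 0.21 and Gcat, which makes or breaks 2-amino-3-ketobutyrate next to glycine, by 1.45 ± 0.18. The mitochondrial folate enzyme Mthfd2, a known ATF4 target, rose in all 3 lines, by 1.85 ± 0.25 in rWT, 1.92 ± 0.24 in DEL and 1.33 ± 0.24 in INS (limma adjusted p 3.75e-08, 7.92e-09 and 0.000728). The list's median effects were -0.59, -0.37 and -0.04.

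Amino acid transporters of the ATF4 programme rose in 8 of 10 cases in rWT, 7 of 10 in DEL and 1 of 10 in INS, against 20.3%, 16.7% and 0.431% of all features called higher, and none fell. The cystine carrier Slc7a11 rose by 4.56 ± 0.45 in rWT and 3.74 ± 0.43 in DEL. The neutral amino acid carriers Slc1a4 and Slc1a5 rose by 3.07 ± 0.34 and 1.75 ± 0.24 in rWT and by 2.63 ± 0.33 and 1.77 ± 0.23 in DEL. Slc3a2, the heavy chain shared by several carriers, rose in rWT (1.54 ± 0.17), DEL (1.45 ± 0.16) and INS (0.85 ± 0.16, limma adjusted p 0.00107). Of 20 cytosolic aminoacyl-tRNA synthetases, which load amino acids onto tRNA, 10 rose in rWT, 9 in DEL and 0 in INS, against the same shares, and none fell. Gars1 (1.202 ± 0.15), Vars1 (1.21 ± 0.17), Iars1 (0.94 ± 0.17) and Yars1 (0.82 ± 0.16) led in rWT, and Gars1 (0.79 ± 0.15), Rars1 (0.69 ± 0.17), Sars1 (0.68 ± 0.10) and Yars1 (0.62 ± 0.15) in DEL. In INS the highest values were those of Yars1 and Nars1 (0.50 ± 0.15 and 0.48 ± 0.17, adjusted p 0.155 and 0.286), and the list's median was 0.29 there, against 0.31 in rWT and 0.27 in DEL.

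Other ATF4 and CHOP targets rose in 15 of 25 cases and fell in 4 in rWT, rose in 18 and fell in 4 in DEL, and rose in 2 in INS. Of all features 20.3%, 16.7% and 0.431% rose and 20.4%, 17.6% and 0.137% fell, so the 4 that fell are no more than the share over all features. The hormone gene Fgf21 rose by 3.41 ± 0.34, 3.48 ± 0.32 and 1.29 ± 0.32 in rWT, DEL and INS. The stress-induced factor Atf3 rose by 2.20 ± 0.34, 3.14 ± 0.32 and 1.38 ± 0.32. The death receptor gene Tnfrsf10b (3.24 ± 0.32 in rWT, 2.99 ± 0.30 in DEL) and the mTORC1 inhibitor gene Ddit4 (2.87 ± 0.36 and 2.57 ± 0.34) rose in rWT and DEL. In INS, Ddit4 was at 1.33 ± 0.34 (adjusted p 0.0501). Upstream of ATF4, 6 of 18 genes for eIF2alpha kinases, phosphatases and eIF2B rose and 4 fell in rWT, and 4 rose and 4 fell in DEL; the falls in both lines and the rises in DEL are near the shares over all features. Impact, an inhibitor of the amino acid sensing kinase GCN2, rose by 0.92 ± 0.11 in rWT and 0.64 ± 0.11 in DEL. Ppp1r15a, whose product GADD34 helps to dephosphorylate eIF2alpha, rose by 0.75 ± 0.12 in rWT, and Dele1, which relays mitochondrial stress, fell by 0.56 ± 0.11 in rWT and by 0.52 ± 0.11 in DEL.

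Other branches of protein stress were followed in 2 further lists. Of all features, 20.3% rose and 20.4% fell in rWT, and 16.7% rose and 17.6% fell in DEL. Of 21 endoplasmic reticulum chaperone and degradation genes, none rose in any line, while 5 fell in rWT and 2 in DEL. These falls are near or below the share over all features. Derl3 fell by 0.95 ± 0.28 and Ern1, the sensor kinase IRE1, by 0.67 ± 0.15 in rWT, and Hyou1 fell by 0.57 ± 0.22 and Ern1 by 0.45 ± 0.14 in DEL. Of 10 genes of the mitochondrial unfolded protein response, 1 rose (the protease Lonp1, 0.48 ± 0.18) and 3 fell in rWT, with the chaperonin Hspd1 at -0.75 ± 0.20. In DEL 1 fell, Clpx, by 1.02 ± 0.35. For a list of 10 genes these counts are near the shares over all features. In INS none of either list passed. Without the 4 rWT arrays, 16.9% of all features were called higher and 19.1% lower in rWT. The list counts in that setting were 4 higher and 9 lower for the one-carbon enzymes, 8 and 0 for the transporters and 11 and 0 for the synthetases. They were 17 and 3 for other targets and 5 and 2 for the eIF2alpha kinase, phosphatase and eIF2B list. For the endoplasmic reticulum list they were 0 and 2, and for the mitochondrial list 2 and 1. The rises of the one-carbon and mitochondrial lists are near the share over all features. The falls of every list but the one-carbon enzymes are below it.

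**Figure D3:**
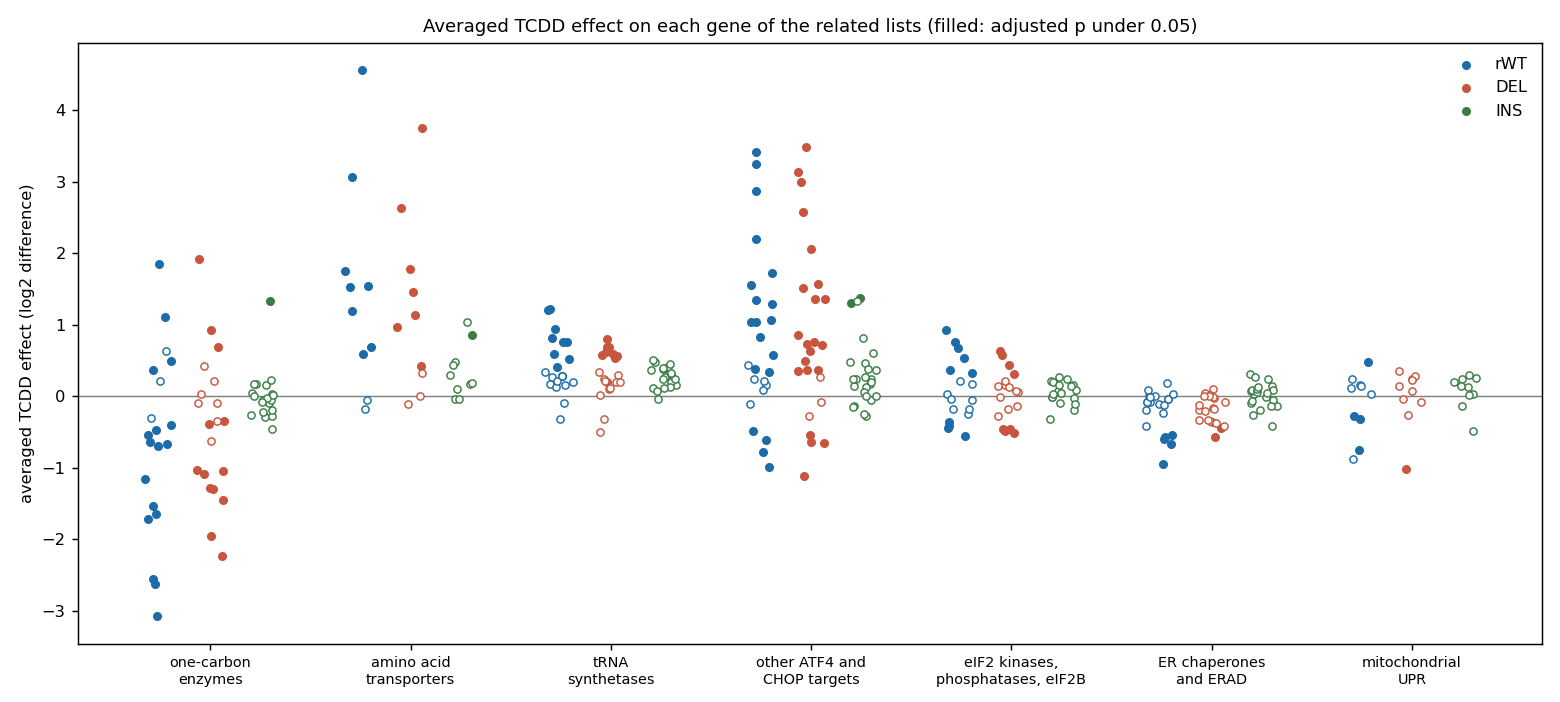
Averaged TCDD effect (log2 difference, vertical axis) on each gene of 7 related lists (horizontal axis) in the 3 lines (colour), filled where the adjusted p was under 0.05. Transporters and tRNA synthetases lie above 0 where filled, endoplasmic reticulum genes below 0 where filled, and one-carbon enzymes spread from -3.08 to 1.92.

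Mice of the same group still differ from each other, which the TCDD comparisons use only to estimate the spread. To follow this, each value was taken as its deviation from its group mean. The 45 pairs of members were then compared over the 60 arrays by Pearson correlation with 100000 two-sided permutations. The permutations moved deviations freely across groups. Deviations within a group cancel out, and their spread differs between groups. With all arrays, the SD of Psat1 in rWT was 0.113 at 125 µg/kg and 2.65 at 500 µg/kg. The permutation p-values are therefore approximate and may be too small, within lines as well. With p-values adjusted over the 45 pairs, 10 pairs passed, all positive. They included Psat1 with Psph (r = 0.71), Asns (0.63) and Trib3 (0.53), and Psph with Asns (0.55). TCDD 500 replicate 4 of rWT read low within its group for each of Psat1, Psph, Asns and Trib3. Without the 4 rWT arrays, 7 pairs passed over 56 arrays: Psat1 with Trib3 (r = 0.595, Spearman's rho 0.563) and with Psph (r = 0.568, rho 0.543), Psph with Trib3 (r = 0.477, rho 0.413), Asns with Atf5 (r = 0.475, rho 0.357), Atf4 with Chac1 (r = 0.412, rho 0.417), Shmt2 with Atf5 (r = 0.387, rho 0.458) and Atf4 with Ddit3 (r = 0.371, rho 0.372). The adjusted p was 0.000225 for the first 2 pairs, whose unadjusted p was the smallest that 100000 permutations can give, and 0.00304 to 0.0309 for the others. Psat1 with Asns did not pass there (r = 0.285, adjusted p 0.136). With the 2 farthest arrays on the x axis also left out, an alternative chosen after seeing the data, r was 0.506 for Psat1 with Trib3 and 0.549 for Psat1 with Psph, and 8 pairs passed: Atf4 with Ddit3 was lost (r = 0.306, adjusted p 0.111), and Shmt2 with Chac1 (r = 0.414) and Asns with Trib3 (r = 0.374) were gained. Within lines, Psat1 with Trib3 gave r = 0.71 in rWT (13 arrays, without the 4), 0.68 in DEL (21 arrays) and 0.52 in INS (22 arrays), and Psat1 with Psph gave 0.769, 0.377 and 0.806. Psph with Trib3 gave 0.849, 0.096 and 0.46. Over the 56 arrays Atf4 did not pass with Psat1 (r = -0.057), Asns (r = -0.221) or Trib3 (r = -0.138), although Asns with Atf4 gave r = 0.767 in the 13 rWT arrays (adjusted p 0.0316) and -0.487 in INS.

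**Figure D4:**
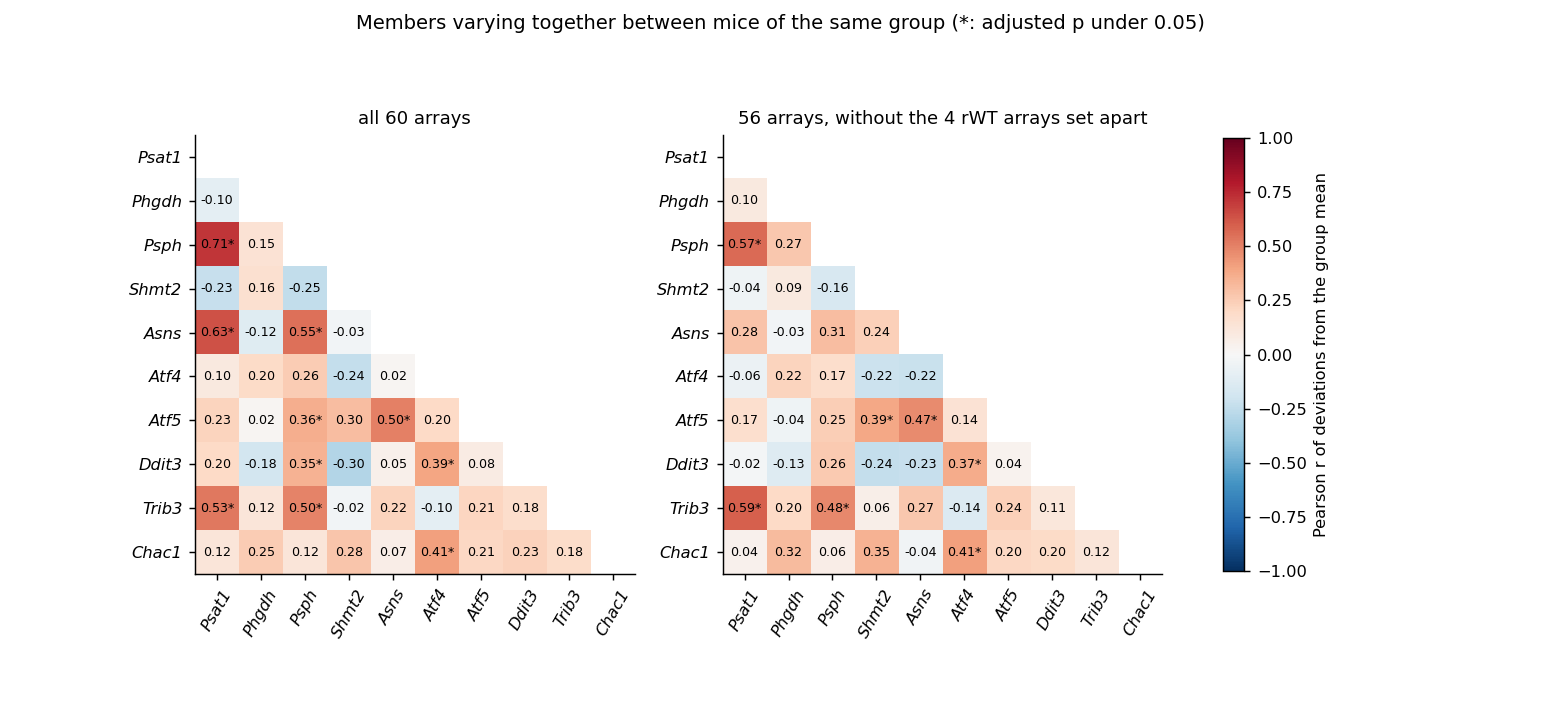
Pearson r of deviations from the group mean for each pair of members (colour and number; rows and columns are genes), over all 60 arrays on the left and over the 56 arrays without the 4 rWT arrays on the right, with a star where the adjusted p was under 0.05. Psat1 with Asns goes from 0.634 to 0.285 between the panels, while Psat1 with Trib3 goes from 0.525 to 0.595.

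The features most like each member over the 60 arrays were found with every value taken minus the corn oil mean of its line, which leaves the TCDD response in. These correlations are descriptions, since the arrays share groups and controls. Psat1 was most like Nqo1 (r = 0.953), an AHR and NRF2 target, followed by Mfge8 (0.941) and Entpd2 (0.935). Ranbp1 (0.912) and Tbrg1 (0.91) were among the 3 features most like Psph, and Asns was most like Comtd1 (0.894), Alox5 (0.881) and Ajuba (0.879). Trib3 was most like Aldh18a1 (0.782), the enzyme that starts proline synthesis, followed by Agfg1 (0.77) and Plpp2 (0.756). Atf5 was most like Tubb2a (0.842) and Atf4 like Ccnj (0.757). The highest values for Ddit3 (Ankrd10, 0.676) and Phgdh (Dctn2, 0.637) were lower.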

How the data were processed

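The authors deposited RMA expression on the log2 scale for each Entrez gene, made with affy 1.44.0 under R 3.1.2 per the submitters' processing notes. The sources used here do not state the probe sets, the genome build or whether the lines were normalized together. All 21115 features of the 60 arrays were used unscaled and unfiltered, and 20932 matched a RefSeq symbol. Each array is a separate mouse per the labels, and the number of arrays limits precision. The 15 line-by-dose groups were fitted in limma 3.58.1 (R 4.3.3), with p-values adjusted by Benjamini-Hochberg over all features within a comparison. Calls were made at an adjusted p under 0.05. For each feature all groups shared an estimate of the spread, so an SE in any line also reflects the spread in the other lines. The scripts were tested on simulated data. Members, gene lists, motifs and the choice of the 4 rWT arrays were made with earlier results of these data known. Named genes are the members, the treatment check, in each list and line the up to 4 called genes with the largest effect (otherwise the 2 largest), and the 3 features most like each member, of which some are not reported here. Arrays were treated as unpaired. The mean correlation of deviations was 0.025 for equal replicate numbers and -0.005 for others, and whether the numbers mark a shared batch was not tested. Alternatives were quantile normalization, median centring, the replicate number as a block, each line alone, eBayes with trend and robust, the dimmest 25% of features left out, and leaving out the 4 rWT arrays or each array in turn.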

Additional observations from a re-analysis of the deposited data

Results flagged for a closer look

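Line differences that passed a test of the difference itself were those of Psat1 (INS minus rWT -2.71, INS minus DEL -2.1), Psph (-1.38 and -0.71), Asns (INS minus rWT -2.91) and Shmt2 (INS minus rWT 0.43), all on the log2 scale and described above with the settings that end them.

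In 7 of 120 member-by-group checks 1 liver lay far from the others of its group, a number near the 1 in 20 that chance gives. Asns in rWT at 500 µg/kg read 5.39 in replicate 4 against 9.96 for its nearest neighbour, and this array is 1 of the 4 set apart by sex-linked genes. Psat1 read 10.9 in DEL replicate 3 at 125 µg/kg (nearest 9.73) and 5.86 in INS replicate 2 at 500 µg/kg (nearest 7.41). Shmt2 read 11.12 in INS replicate 3 at 125 µg/kg (nearest 11.29). Atf4 read 7.38 in rWT corn oil replicate 2 (nearest 7.07). Atf5 read 9.38 in DEL replicate 4 at 500 µg/kg (nearest 8.97) and 8.2 in INS replicate 1 at 1000 µg/kg (nearest 8.69).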

How the results depend on the processing

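Counts are of the 10 members unless stated. Leaving out each array in turn gave, for the averaged effect, 5 to 6 called genes in rWT, between 5 and 8 in DEL and 1 to 1 in INS, 14 to 19, 13 to 18 and 1 to 2 of 40 for the doses, and 0 to 0 for the slopes. Line differences gave 0 to 2 (DEL minus rWT), 3 to 5 (INS minus rWT) and 1 to 3 (INS minus DEL), and corn oil differences 2 to 4, 2 to 3 and 2 to 4. The INS dose count went from 1 to 4 without the 4 rWT arrays and with each line fitted alone. In the main fit the rWT arrays enter the spread used for INS. The corn oil count for DEL minus rWT went from 4 to 1 under quantile normalization, median centring and without the 4 arrays, and that for INS minus DEL from 4 to 0 under both scalings. In the latter Psph turned to 0.051 and 0.09, Atf5 to 0.122 and 0.217 (quantile, centring) and Shmt2 to 0.172 (centring). The 10 passing pairs became 2 within DEL, 1 within INS and 5 without the 2 farthest arrays, and Psph with Ddit3 turned to -0.155 within DEL. The causes were not tested. Of 90 member results, 74 kept their call or lack of a call under quantile normalization, 71 under median centring and 81 without the 4 arrays. With the replicate block and with trend and robust, 89 each did. Under quantile normalization 11 calls were lost, 3 gained and 2 results changed direction. Under median centring these numbers were 10, 6 and 3, and without the 4 arrays 5, 4 and 0. Whether replicate numbers pair arrays was not tested (20 of 60 arrays correlated best with their own number). The block took INS minus rWT from 4 to 3 genes, Shmt2 being lost (0.41, limma adjusted p 0.0541).

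Over all features, median centring raised calls from 8584 to 13735 in rWT, from 7245 to 13835 in DEL and from 2978 to 6423 for INS minus DEL. Leaving out the 4 arrays moved the INS count from 120 to 192. Corn oil calls for DEL minus rWT went from 7600 to 2823 (quantile), 2540 (centring), 3501 (without the 4) and 4220 (dim features left out), for INS minus rWT from 8825 to 3240 and 4968, and for INS minus DEL from 15950 to 1720 and 1511. The number of mice, from 2 to 5 a group, limits precision, and a level near the array background understates a fold.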
